A study of Mus musculus with 6 samples.

Results

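Galectins are lectins that bind beta-galactoside sugars, and 5 of their genes were examined in the mouse heart after myocardial infarction (MI): Lgals1, Lgals3, Lgals4, Lgals8 and Lgals9. They were taken by symbol from the Ensembl identifiers of a table of raw RNA-seq counts that holds 38293 genes. RNA came from 3 WT and 3 Zeb2 cKO heart samples of adult mice, C57BL/6J (backcrossed), that had a permanent occlusion of the left anterior descending coronary artery 14 days earlier. The study's methods say in general that its samples are biological replicates. In Zeb2 cKO mice a floxed Zeb2, a transcriptional repressor, is deleted by a Cre recombinase driven by the murine Myh6 promoter, and thus in cardiomyocytes. The animals labelled WT carry the floxed gene without Cre (Zeb2 fl/fl) according to the study's methods. The labels name the border region of the infarct, whereas the methods name the remote zone. Values are CPM, counts scaled to a common library size with edgeR's TMM factors, and fold changes are Zeb2 cKO against WT. The comparison asks whether galectin transcripts differ when cardiomyocytes lack ZEB2.

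The tissue was sequenced in bulk, so fewer cells of a type and less RNA per cell cannot be told apart. Total counts were 37.3 M to 51.1 M per library, and all 5 galectin genes passed the filter on low counts that left 14746 genes to test. Zeb2 itself ranged from 61.3 to 116 CPM in WT and from 59.6 to 72.6 CPM in Zeb2 cKO (log2 fold change -0.33, SE 0.25, edgeR adjusted p = 0.957), so the groups overlapped. The library WT 2 stood apart from the others. Its 12 macrophage markers summed to 914.4 CPM against 237.1 to 326.3 CPM in the other 5 libraries, and its 10 fibroblast and myofibroblast markers to 9684 CPM against 1712 to 2372 CPM. Its 10 cardiomyocyte markers summed to 34669 CPM against 55680 to 67969 CPM. Without WT 2 the log2 fold change of Zeb2 was -0.0058 (SE 0.12), at means of 66.6 CPM in WT and 66.2 CPM in Zeb2 cKO. The lower mean of Zeb2 in Zeb2 cKO thus rested on WT 2. Because WT 2 stood apart, the fold change of each galectin gene is given with and without it.

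Galectins are made in the cytosol without a signal peptide, and a fraction of them leaves the cell and cross-links glycoproteins on cell surfaces and in the matrix. They fall into 3 structural classes: the prototype galectins such as galectin-1 (Lgals1) have a single carbohydrate recognition domain and dimerise, the chimera galectin-3 (Lgals3) joins such a domain to a flexible tail through which it oligomerises, and the tandem-repeat galectins 4, 8 and 9 hold a pair of different domains in the same chain. In infarcted heart galectin-3 is known mainly as a product of activated macrophages that promotes fibrosis, and galectin-1 as a product of cardiomyocytes and leukocytes that restrains inflammation. Galectin-4 is best known from the epithelium of the gut. Galectin-8 and galectin-9 also act inside cells, where they detect sugars exposed on damaged lysosomes.

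ZEB2 binds E-box-type sequences with the letters CACCTG, or CAGGTG on the opposite strand, and these letters were looked for in RefSeq promoters of build GRCm38.p6. Each promoter ran from 250 bases before to 50 bases after the gene's start, and 4 of the 5 galectin genes had an entry. The matches are shown because Lgals3 and Lgals4 had the lowest and the highest fold change of the 5 genes. The sequences are on the strand of the gene, and capitals mark the match.
Lgals3, chr14:47373626-47373653, plus strand: gcggaaggcttCAGGTGaaggaattagg
Lgals3, chr14:47373735-47373762, plus strand: actgcggggcaCAGGTGaggggcacagg
Lgals4, chr7:28833708-28833735, plus strand: agtatgagggcCACCTGcagccagccac

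The Lgals3 matches began at positions -223 and -114 from its RefSeq start, which lies inside the span that Gencode gives the gene, and the Lgals4 match at position -75. Lgals8 and Lgals9 had 0 matches in the window. The letters occur, on either strand, in 6640 of 32851 promoters of this length (20.2%). A match is a description of the letters and no measure of binding.

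No galectin gene passed an adjusted p of 0.05 in edgeR's quasi-likelihood test, in either direction, in a comparison in which 0% of all tested genes passed. At an unadjusted p under 0.05 the test picked 1 galectin gene, Lgals3, as lower in Zeb2 cKO (0.861% of all tested genes in this direction) and 0 as higher (1.04% of all tested genes). DESeq2 called 0 of the 5. The log2 fold change was below 0 for 4 of the 5 genes (51.4% of all tested genes), and its median over the 5 was -0.20, against -0.007 over all tested genes. Without WT 2 the median over the 5 was 0.059.

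**Figure D1:**
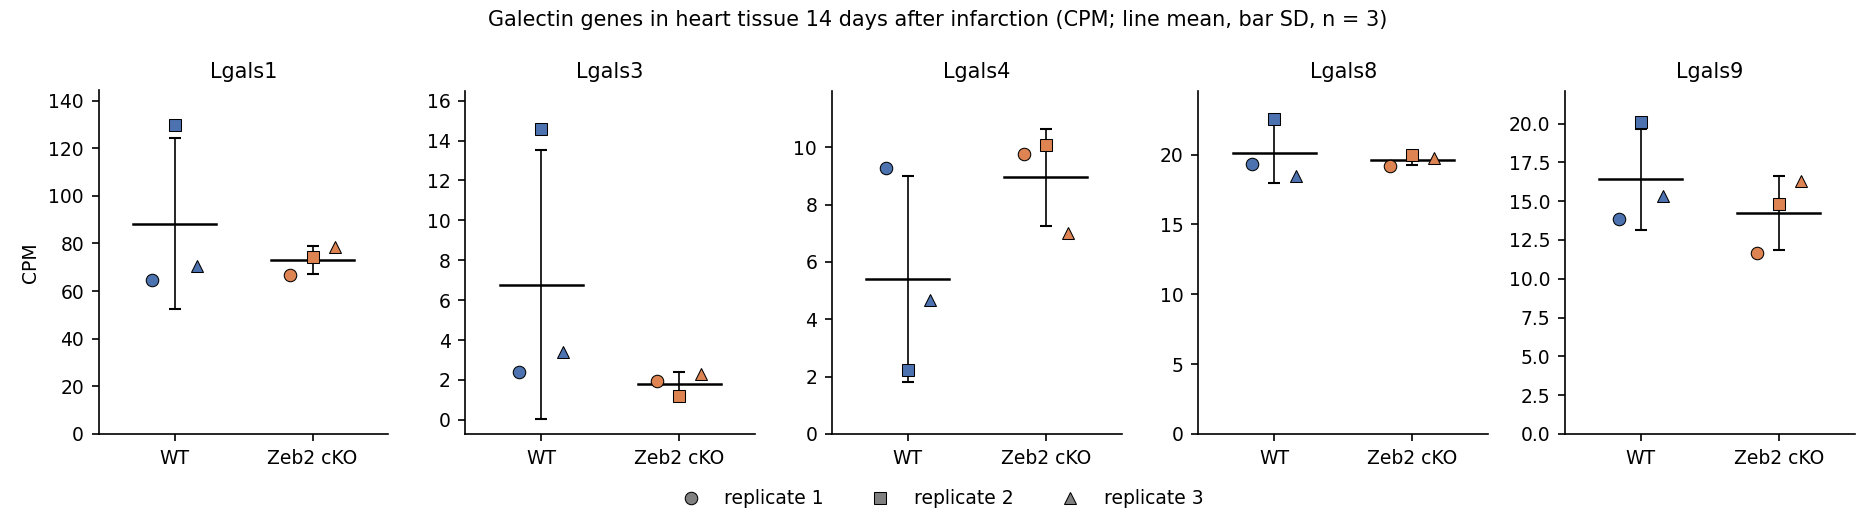
CPM (y axis, linear) of the 5 galectin genes in each library, by genotype (x axis); symbols are replicates, lines are means and bars are SD (n = 3). In WT the square, WT 2, is the highest of all libraries for Lgals1, Lgals3, Lgals8 and Lgals9 and the lowest for Lgals4, and for Lgals3 alone the groups do not overlap.

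Lgals1 (ENSMUSG00000068220, GRCm38 chr15:78926725-78930465, plus strand) was at 64.5, 129.7 and 70.5 CPM in WT 1, 2 and 3 and at 66.8, 74.3 and 78.4 CPM in Zeb2 cKO 1, 2 and 3. Apart from WT 2, which was at 1.83 times the mean of the others, the libraries lay close together and the groups overlapped. The means were 88.2 ± 36.0 CPM in WT and 73.2 ± 5.87 CPM in Zeb2 cKO (SD, n = 3). The log2 fold change of -0.27 (SE 0.27, 95% interval -0.92 to 0.38, edgeR adjusted p = 0.957) turned to 0.12 (SE 0.11) without WT 2. The difference did not exceed the spread between libraries.

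Lgals3 (ENSMUSG00000050335, GRCm38 chr14:47367751-47386160, plus strand), the chimera galectin, was at 2.39, 14.6 and 3.39 CPM in WT 1, 2 and 3 and at 1.96, 1.198 and 2.29 CPM in Zeb2 cKO 1, 2 and 3. Every Zeb2 cKO library was below every WT library, by a wide margin for WT 2 and by a narrow one for WT 1. Among all tested genes 2.97% were likewise lower in Zeb2 cKO without overlap. These values rest on 90, 639 and 130 counts in WT and on 98, 52 and 123 counts in Zeb2 cKO. The gap between WT 1 and Zeb2 cKO 3 was within counting error, with exact Poisson 95% intervals of 1.92 to 2.94 CPM and of 1.90 to 2.73 CPM, which cover counting error only.

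The mean of Lgals3 was 3.73-fold higher in WT (6.78 ± 6.76 CPM) than in Zeb2 cKO (1.82 ± 0.559 CPM; SD, n = 3). The log2 fold change was -1.90 (SE 0.70, 95% interval -3.55 to -0.25, edgeR unadjusted p = 0.0300, adjusted p = 0.957), and only 40 of the 14746 tested genes had a lower one. The exact permutation test gave a two-sided p of 0.1, the smallest that 3 against 3 libraries allow. WT 2 was at 6.49 times the mean of the other 5 libraries, and 70 tested genes exceeded this ratio. Without WT 2 the log2 fold change was -0.66 (SE 0.29, edgeR unadjusted p = 0.0579), and the 2 remaining WT libraries still lay above the Zeb2 cKO libraries. The unadjusted edgeR p was also over the 0.05 threshold without Zeb2 cKO 1, 2 or 3 (0.0718, 0.0916 and 0.0584, at log2 fold changes of -1.95, -1.67 and -2.10).

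Lgals4 (ENSMUSG00000053964, GRCm38 chr7:28833854-28841708, plus strand), a tandem-repeat galectin, was at 9.29, 2.23 and 4.66 CPM in WT 1, 2 and 3 and at 9.77, 10.09 and 7.02 CPM in Zeb2 cKO 1, 2 and 3. WT 2 and WT 3 were below all Zeb2 cKO libraries, whereas WT 1 was above Zeb2 cKO 3, so the groups overlapped. The mean was 1.66-fold higher in Zeb2 cKO (8.96 ± 1.69 CPM) than in WT (5.40 ± 3.59 CPM; SD, n = 3). The log2 fold change was 0.73 (SE 0.47, edgeR adjusted p = 0.957), and its 95% interval, -0.37 to 1.84, included 0. It was 0.36 (SE 0.29) without WT 2 and 1.38 without WT 1, where the unadjusted edgeR p fell to 0.0069.

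WT 2 held Lgals4 at 0.273 times the mean of the other libraries, and 112 tested genes had a lower ratio. Counts of Lgals4 were 350, 98 and 179 in WT and 489, 438 and 377 in Zeb2 cKO. Markers of epithelium, the tissue galectin-4 is known from, were low: Epcam, Krt20, Cldn3 and Cldn4, 4 of the 10 listed, had 3 counts or fewer in every library, and 3 (Krt18, Krt19 and Vil1) passed the filter. The 10 summed to 1.17 to 2.85 CPM in WT and to 1.38 to 4.78 CPM in Zeb2 cKO, below Lgals4 itself in 5 of the 6 libraries. The 3 tested markers had log2 fold changes above 0, with a median of 0.37 (0.74 without WT 2). When 1 library was left out, those of Krt18 and Krt19 ranged from -0.72 to 0.80 and from -0.025 to 1.74. Untested Epcam, Cdh1 and Krt20 had lower means in Zeb2 cKO, and untested Krt8, Cldn3, Cldn4 and Cldn7 had higher ones. Genes this low can pass the filter through the group in which they are higher, so these directions cannot be set beside that of Lgals4. Vil1, of the gut brush border, was at 0.159, 0.137 and 0.156 CPM in WT 1, 2 and 3. In Zeb2 cKO 1, 2 and 3 it was at 0.260, 0.277 and 0.261 CPM, higher without overlap (3.39% of all tested genes). Its log2 fold change was 0.81 (SE 0.30, edgeR unadjusted p = 0.0399, adjusted p = 0.957). The Vil1 values rest on few counts, as 1 count was 0.0265 CPM in WT 1 and 0.0186 CPM in Zeb2 cKO 3. No counting interval is given for them here. The part of epithelial RNA in the Lgals4 values was not tested.

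Lgals8 (ENSMUSG00000057554, GRCm38 chr13:12439415-12464944, minus strand), whose product marks damaged lysosomes, was at 19.3, 22.5 and 18.5 CPM in WT 1, 2 and 3 and at 19.2, 19.98 and 19.7 CPM in Zeb2 cKO 1, 2 and 3. It was the most even of the 5 genes, and the Zeb2 cKO libraries lay within the WT range. The log2 fold change was -0.034 (SE 0.12, 95% interval -0.31 to 0.24, edgeR adjusted p = 0.978) and 0.059 without WT 2. Of its annotated exons, 155 bases (4.20%) overlap Heatr1 on the opposite strand, and since the strand option of the counting is not given in the sources used here, reads from these bases cannot be assigned with certainty.

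Lgals9 (ENSMUSG00000001123, GRCm38 chr11:78962974-78984946, minus strand), an attractant of eosinophils and a ligand of TIM-3, an inhibitory receptor of T cells, was at 13.9, 20.1 and 15.3 CPM in WT 1, 2 and 3 and at 11.6, 14.8 and 16.3 CPM in Zeb2 cKO 1, 2 and 3. WT 2 was the highest and Zeb2 cKO 1 the lowest, and the groups overlapped. The log2 fold change was -0.20 (SE 0.19, 95% interval -0.66 to 0.25, edgeR adjusted p = 0.957), and it was -0.029 (SE 0.16) without WT 2. For Lgals1, Lgals3, Lgals4 and Lgals9, 0 stretches of the longest transcript were shared with a transcript of another gene over at least 75 bases at 95% identity.

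**Figure D2:**
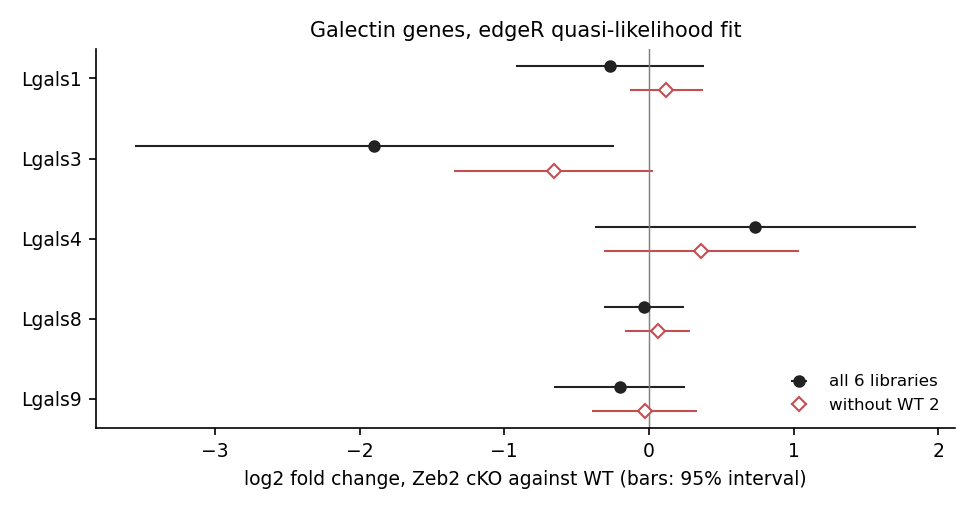
Log2 fold change of each galectin gene, Zeb2 cKO against WT (x axis), with 95% intervals from edgeR; filled circles use all 6 libraries and open diamonds leave out WT 2. The Lgals3 estimate moves from -1.90 to -0.66 without WT 2, and its interval then includes 0.

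Because WT 2 held more macrophage and fibroblast RNA than the others, each galectin gene was also set against the summed CPM of marker genes in the same library. These ratios were chosen after the data were seen, and 15 were computed, 5 genes against 3 marker lists. Per 100 CPM of macrophage markers, Lgals3 was at 1.01, 1.59 and 1.04 CPM in WT 1, 2 and 3 and at 0.636, 0.403 and 0.808 CPM in Zeb2 cKO 1, 2 and 3. The groups did not overlap, and among all tested genes set against the same markers 0.244% were likewise lower in Zeb2 cKO. These markers were highest in WT 2, which lowers the WT 2 ratio of any gene raised less than the markers there. The share is therefore no measure of how unusual Lgals3 is. No galectin gene was higher without overlap (2.39% of all tested genes). The difference of the log2 ratios was -1.002 (-0.79 without WT 2).

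Per 100 CPM of fibroblast and myofibroblast markers, Lgals3 was at 0.138, 0.150 and 0.157 CPM in WT and at 0.114, 0.063 and 0.097 CPM in Zeb2 cKO. On this scale WT 2 lay between WT 1 and WT 3, and all Zeb2 cKO libraries were below all WT libraries (0.122% of all tested genes). This share has the same limit, as these markers were also highest in WT 2. The sum weighs abundant genes most, with Col3a1 at 4872 of 9684 CPM in WT 2, and other weights were not tested. On the same scale 0 galectin genes were higher without overlap (2.42% of all tested genes). The difference of the log2 ratios was -0.74, and -0.73 without WT 2. Exact permutation tests of the Lgals3 ratios to macrophage and to fibroblast markers each gave a two-sided p of 0.1, the smallest possible, and no lower value is possible after adjustment over the 15 ratios. The counting error of Lgals3 given above carries over to these ratios. Against the summed cardiomyocyte markers the Lgals3 groups overlapped, as did those of the other 4 galectin genes (of all tested genes, 1.18% were lower and 1.3% higher without overlap).

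**Figure D3:**
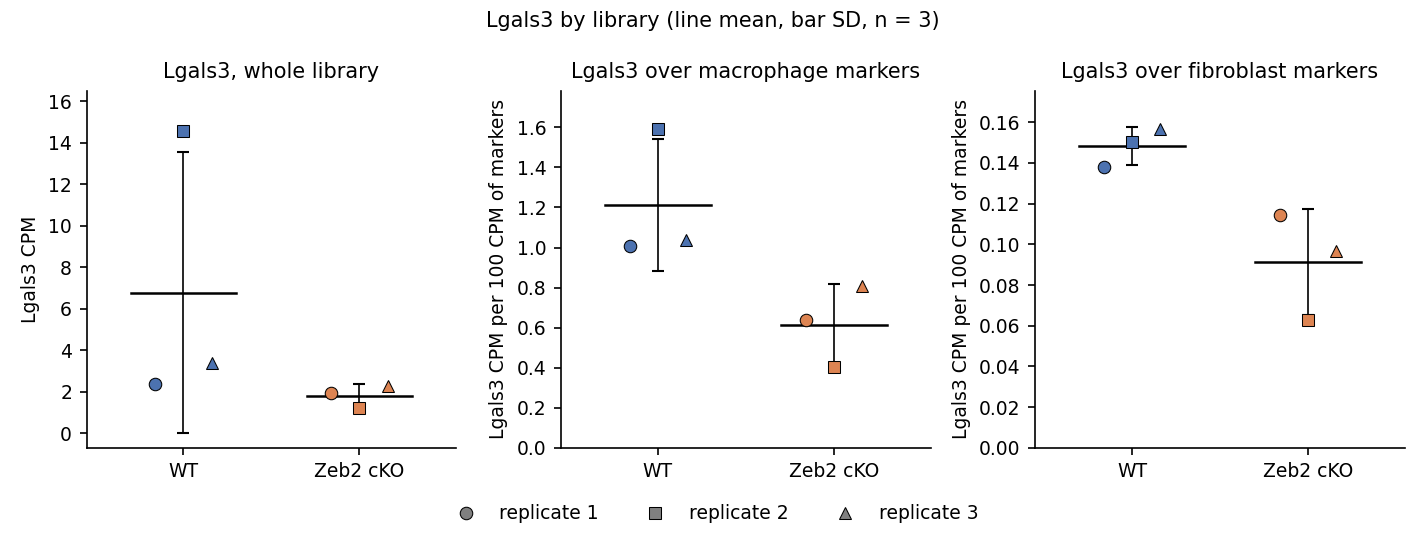
Lgals3 by library as CPM (left), per 100 CPM of 12 summed macrophage markers (middle) and per 100 CPM of 10 summed fibroblast and myofibroblast markers (right), with symbols for replicates, lines for means and bars for SD (n = 3). In all 3 panels the Zeb2 cKO libraries lie below the WT libraries, and WT 2 stands apart least in the right panel.

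Lgals4 was set against the markers of cardiomyocytes, which like Lgals4 were lowest in WT 2. Per 100000 CPM of these markers it was at 13.7, 6.44 and 7.48 CPM in WT 1, 2 and 3 and at 14.5, 17.05 and 12.6 CPM in Zeb2 cKO 1, 2 and 3. WT 1 again fell among the Zeb2 cKO libraries (exact permutation test, two-sided p = 0.2), and the difference of the log2 ratios was 0.75, or 0.53 without WT 2. Against macrophage and fibroblast markers, which were highest in WT 2, the Lgals4 differences were 1.43 and 1.69. Without WT 2 they were 0.34 and 0.39, and the Lgals4 groups overlapped in both ratios. Lgals1, Lgals8 and Lgals9 overlapped between the groups in every one of these ratios.

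Of the marker lists, those of macrophages and fibroblasts differed between the groups mainly through WT 2. Without WT 2 the median log2 fold change of the 12 macrophage markers went from -0.81 to 0.021, and that of the 10 fibroblast and myofibroblast markers from -1.03 to 0.13. Summed endothelial markers (8 genes) spanned 543.6 to 717.3 CPM in WT and 648.1 to 792.6 CPM in Zeb2 cKO. Of 10 lymphocyte markers 4 were tested, and the list summed to 1.61 to 4.99 CPM in WT and 1.45 to 2.61 CPM in Zeb2 cKO. Of 7 neutrophil markers 3 were tested, with a median log2 fold change of -0.78, and of -0.89 without WT 2. Of these, Csf3r went from -0.73 to 0.0078 without WT 2. The neutrophil list summed to 1.81 to 5.01 CPM in WT and 1.52 to 2.62 CPM in Zeb2 cKO, with Mpo and Ly6g at 3 counts or fewer throughout. The part of these cells in the galectin values was not tested beyond the ratios above.

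To compare levels between galectin genes, CPM were divided by the length of the annotated exons in kilobases. On this scale Lgals1 was by far the highest, at 71.5, 143.6 and 78.1 CPM per kb in WT 1, 2 and 3 and at 74.0, 82.3 and 86.8 CPM per kb in Zeb2 cKO 1, 2 and 3. It made up 80.8% to 85.5% of the summed level of the 5 genes. Its ranges did not overlap those of the next gene, Lgals9, at a ratio of 10.9 to 15.3 within a library.

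Lgals9 was at 6.49 to 9.39 CPM per kb in WT and at 5.44 to 7.63 CPM per kb in Zeb2 cKO, followed by Lgals8 at 5.01 to 6.11 and at 5.20 to 5.42 CPM per kb. Lgals9 exceeded Lgals8 in 6 of 6 libraries, by 1.05-fold to 1.54-fold, but their ranges overlapped. Lgals4 lay below Lgals8 in 6 of 6 libraries without overlap on this scale, at 0.965 to 4.01 CPM per kb in WT and 3.03 to 4.36 CPM per kb in Zeb2 cKO.

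Lgals3 was the lowest of the 5 genes in 5 of 6 libraries, at 1.29, 7.84 and 1.82 CPM per kb in WT and at 1.05, 0.645 and 1.23 CPM per kb in Zeb2 cKO. In WT 2 it exceeded Lgals8 and Lgals4. The ratio of Lgals4 to Lgals3 was 3.12, 0.123 and 1.11 in WT 1, 2 and 3 and 4.005, 6.76 and 2.46 in Zeb2 cKO 1, 2 and 3, so WT 1 lay among the Zeb2 cKO libraries. With the length of the longest annotated transcript in place of all exons, Lgals4 exceeded Lgals8 in Zeb2 cKO 1 (7.06 against 6.75 CPM per kb) and in Zeb2 cKO 2 (7.29 against 7.03 CPM per kb), and the order Lgals1, Lgals9, Lgals8, Lgals4, Lgals3 held in 3 libraries instead of 5.

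**Figure D4:**
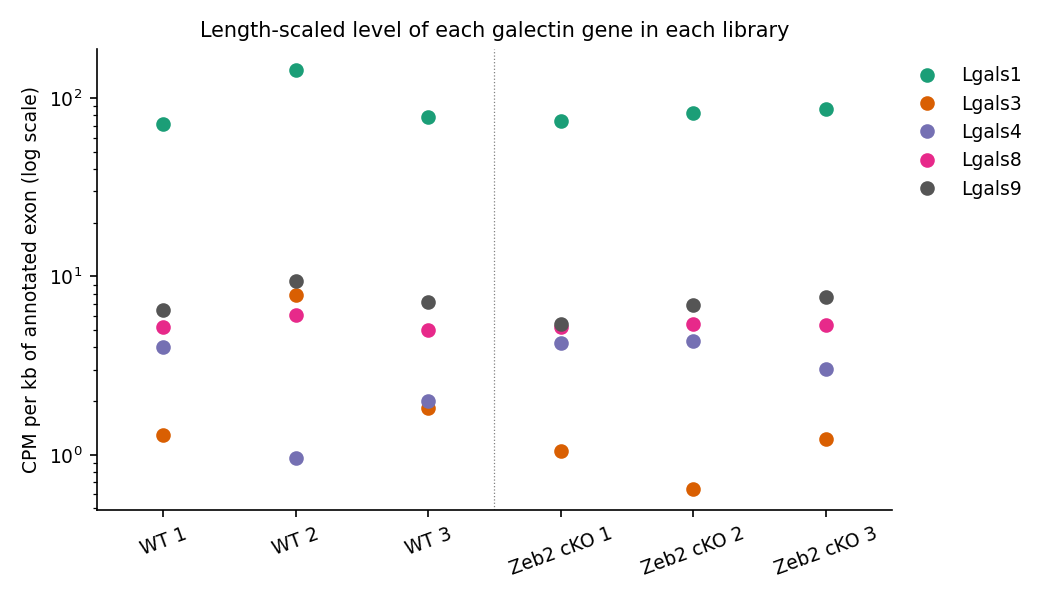
Level of each galectin gene in each library (x axis) in CPM per kb of annotated exon (y axis, log scale). Lgals1 lies at 71.5 or above in all libraries, and in WT 2 Lgals3 lies above Lgals8 and Lgals4.

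Other galectin genes were barely detected, apart from Lgalsl, the gene of a galectin-related protein. Lgalsl was at 21.6, 27.5 and 21.8 CPM in WT 1, 2 and 3 and at 18.3, 21.2 and 21.4 CPM in Zeb2 cKO 1, 2 and 3. Its groups did not overlap, lower in Zeb2 cKO (2.97% of all tested genes were likewise lower), by a margin much narrower than the range within WT. Its log2 fold change was -0.22 (SE 0.14, edgeR adjusted p = 0.957), and it was -0.092 without WT 2. Lgals2 had 0 to 3 counts per library and Lgals12 likewise 0 to 3, Lgals7 had 8 counts in WT 2 and 0 or 1 elsewhere, and Grifin had 0 counts in all 6 libraries, where 3 counts correspond to 0.0558 to 0.0796 CPM. Lgals6 was not analysed here.

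Galectins act through glycoproteins, and 18 genes of such counter-receptors and ligands were all tested. None was called in either direction (0% of all tested genes), and 0 had an unadjusted p under 0.05 in edgeR (1.9% of all tested genes). Of the 18, 14 had a log2 fold change below 0, with a median of -0.22, and without WT 2 the median was 0.024. The gene of galectin-3-binding protein, Lgals3bp, was at 14.5, 24.2 and 18.3 CPM in WT 1, 2 and 3 and at 11.2, 16.6 and 16.2 CPM in Zeb2 cKO 1, 2 and 3. Its groups overlapped (log2 fold change -0.37, SE 0.23; -0.16 without WT 2).

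Among receptors of leukocytes that bind galectins, Trem2 and Havcr2 were highest in WT 2. Trem2, a phagocyte receptor that binds galectin-3, was at 1.54, 10.7 and 2.14 CPM in WT 1, 2 and 3 and at 1.56, 2.47 and 2.05 CPM in Zeb2 cKO 1, 2 and 3. Unlike Lgals3, its libraries other than WT 2 were intermixed, and its log2 fold change of -1.25 (SE 0.72) turned to 0.14 without WT 2. Havcr2, the gene of TIM-3, was at 0.265, 2.21 and 0.286 CPM in WT and at 0.320, 0.369 and 0.465 CPM in Zeb2 cKO. Its log2 fold change of -1.27 (SE 0.83) turned to 0.48 without WT 2. Mertk, an efferocytosis receptor that also stands in the macrophage list, had a log2 fold change of -0.093 (SE 0.16).

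Among surface glycoproteins, Cd44, the hyaluronan receptor, was at 9.80, 22.4 and 15.99 CPM in WT 1, 2 and 3 and at 12.7, 8.53 and 20.4 CPM in Zeb2 cKO 1, 2 and 3. These libraries were thoroughly mixed (log2 fold change -0.21, SE 0.39). The log2 fold changes of Spn (CD43), Pdpn (podoplanin) and Thy1 were -1.01 (SE 0.49), -0.98 (SE 0.52) and -0.61 (SE 0.34), and they shrank to -0.29, -0.16 and -0.17 without WT 2. Nrp1, a co-receptor of vascular endothelial growth factor that binds galectin-1, was at 204.7, 153.6 and 197.4 CPM in WT and at 209.9, 205.3 and 218.3 CPM in Zeb2 cKO. It was the only gene of the list whose groups did not overlap, higher in Zeb2 cKO (3.39% of all tested genes), with a log2 fold change of 0.19 (SE 0.16) and of 0.074 without WT 2.

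The sugars that galectins bind, N-acetyllactosamine chains, are built by Golgi glycosyltransferases, of which 13 of 14 listed genes were tested. None was called, 8 had a log2 fold change below 0, and the median was -0.057. Gcnt1, the enzyme that starts core 2 branches on O-glycans, was at 16.5, 13.1 and 13.0 CPM in WT 1, 2 and 3 and at 3.44, 8.69 and 6.44 CPM in Zeb2 cKO 1, 2 and 3. All WT libraries, WT 2 among them, lay close together and above all Zeb2 cKO libraries.

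The mean of Gcnt1 was 2.30-fold higher in WT (14.2 ± 2.00 CPM) than in Zeb2 cKO (6.19 ± 2.63 CPM; SD, n = 3). Its log2 fold change was -1.20 (SE 0.32, 95% interval -1.96 to -0.44, edgeR unadjusted p = 0.0074, adjusted p = 0.957), and it was -1.25 without WT 2. It was the only gene of the 13 with an unadjusted p under 0.05 (0.861% of all tested genes were so called and lower) and the only one without overlap (2.97% of all tested genes were likewise lower). Mgat2, which branches N-glycans, B4galt2, which adds galactose, and St6gal1, which caps chains with the sialic acid that blocks galectin-1, had log2 fold changes of -0.40 (SE 0.29), -0.48 (SE 0.31) and -0.30 (SE 0.22). Without WT 2 these were 0.016, -0.034 and -0.0075, and for B4galt2 34.7% of the longest transcript is shared with Ccdc24.

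Genes that act with galectins 3, 8 and 9 at damaged lysosomes were tested for 15 of 16, of which none was called and 0 had an unadjusted p under 0.05 (1.9% of all tested genes). Their median log2 fold change was -0.032, with 9 below 0 and 6 above. Trim16, a ubiquitin ligase that binds galectin-3, had a log2 fold change of 0.21 (SE 0.16), and the autophagy receptor gene Optn one of 0.28 (SE 0.26). Rraga and Rragc, GTPases that recruit the growth kinase mTORC1 to lysosomes, had log2 fold changes of -0.26 (SE 0.20) and -0.22 (SE 0.13), and Lamtor1, of their anchoring complex, one of 0.096 (SE 0.098). Rragc was lower and Lamtor1 higher in Zeb2 cKO without overlap, 1 of 15 genes in each direction (2.97% and 3.39% of all tested genes), but 38.0% of the longest Lamtor1 transcript is shared, in stretches, with transcripts of 43 other genes. Calcoco2, a receptor for galectin-8, had 0 counts. Since 49.8% of its longest transcript is shared with transcripts of Gm11701 and Gm9697, this need not mean that it was absent.

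**Figure D5:**
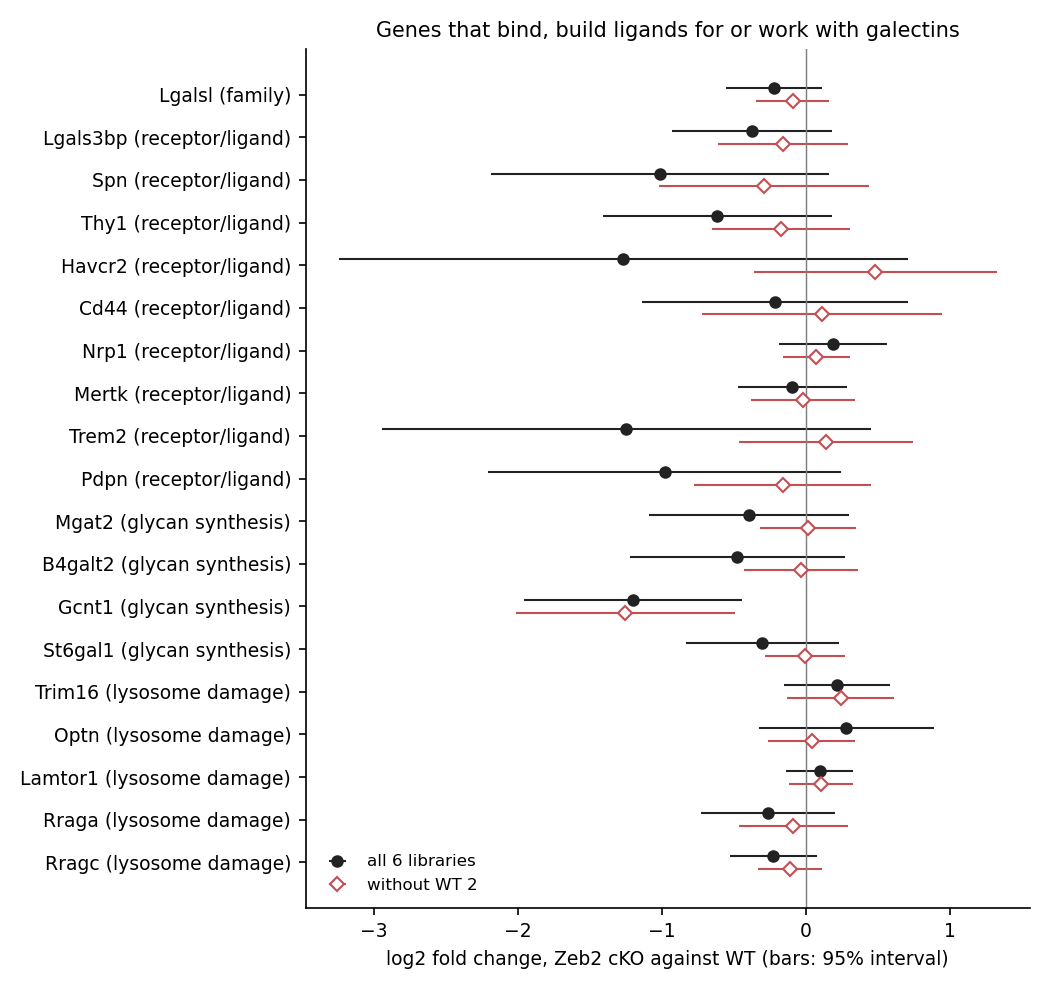
Log2 fold change, Zeb2 cKO against WT (x axis), of Lgalsl and the named genes of the counter-receptor, glycan synthesis and lysosome damage lists, with 95% intervals from edgeR. Filled circles use all 6 libraries and open diamonds leave out WT 2, and Gcnt1 keeps its place at -1.20 and -1.25.

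Lastly, the protein-coding genes whose pattern over the 6 libraries was most like each galectin gene were listed, by the root mean square (RMS) difference of log2 CPM after subtracting each gene's mean. Candidates were 8126 genes with a mean of at least 5 CPM. For Lgals3 they were Frzb, a secreted Wnt antagonist (RMS difference 0.189), Aebp1, of the extracellular matrix (0.320), and Cyp1b1, a cytochrome (0.331), against an RMS of 1.11 of Lgals3 around its own mean. Frzb was at 9.80, 78.3 and 13.5 CPM in WT and at 8.07, 5.95 and 12.4 CPM in Zeb2 cKO, so that, unlike Lgals3, its groups overlapped.

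For Lgals4 the nearest were Adamts7, a metalloprotease (RMS difference 0.143), Plxnb1, a semaphorin receptor (0.173), and Rnf207 (0.195), against its own RMS of 0.770. Adamts7 was at 10.9, 3.28 and 7.34 CPM in WT and at 12.2, 12.6 and 9.29 CPM in Zeb2 cKO, low in WT 2 as Lgals4 was. Nearest to Lgals1 were Clic1 (0.040), Itm2c (0.044) and Ermp1 (0.044), against its own RMS of 0.338. Lgals8 and Lgals9 varied little (own RMS 0.090 and 0.237), and their nearest genes were Man1b1 (0.022), Yeats4 (0.025) and Mesd (0.025), and Atp8b1 (0.028) and Ifi203 (0.042). These lists rest on 6 libraries, and without WT 2 at most 1 of the 3 genes recurred for each of the 5 galectin genes.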

How the data were processed

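RNA without ribosomal RNA was sequenced by the authors as stranded single-end reads of 75 bases, aligned with STAR and counted on Gencode M4; the STAR version, multimapping and strand options are not given in the sources used here. The authors deposited raw counts per gene, and each column matched 1 sample (0 left over). Names, lengths and coordinates came from Gencode M21 (GRCm38). Counts were filtered with filterByExpr, scaled by TMM and tested with glmQLFit and glmQLFTest in edgeR 4.0.16 (R 4.3.3; genotype as the factor; fold change prior count 0.125; Benjamini-Hochberg over all 14746 genes; common biological coefficient of variation 0.243). DESeq2 1.42.0 was an alternative, as were other scalings, no filter, robust dispersions, a replicate block, no mitochondrial genes and leaving out each library. Shared transcript stretches were found with BLAST 2.17.0. The steps were tested on simulated data. Members and gene lists were chosen with earlier results of these data known. Named genes were the members, tested family genes, per list the 4 smallest unadjusted p plus Lgals3bp, Cd44, Mertk, Trem2 and Havcr2, and the 3 nearest genes per member, of which 1 is not reported here; others were named where a count of 5 or fewer needed it. Counting error can match a gap between libraries, and exact Poisson intervals were computed. They overlapped for Lgals3 between WT 1 and Zeb2 cKO 3, and for Lgals8 among the libraries other than WT 2. For Lgals3 the interval of WT 2 (13.5 to 15.7 CPM) met that of no other library, and those of Zeb2 cKO 2 and 3 did not overlap.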

Additional observations from a re-analysis of the deposited data

How the results depend on the processing

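Across 13 other settings of scaling, filter, test and libraries, Lgals3, Lgals4 and Lgals9 kept their direction, and no galectin gene or listed gene passed the adjusted threshold. The lowest adjusted p in edgeR, 0.596, was shared by Lgals3, Lgals4 and several listed genes, Gcnt1 and Spn among them. DESeq2 called 1 gene of all those tested, higher in Zeb2 cKO (Slc46a2), where edgeR called 0 at 280 unadjusted; the cause was not tested. Unadjusted calls were 600 with no filter, 429 with DESeq2 and 122 to 1134 when a library was left out. Leaving out 1 library gave log2 fold changes of -2.30 to -0.66 for Lgals3, 0.36 to 1.38 for Lgals4, -0.45 to 0.12 for Lgals1, -0.092 to 0.059 for Lgals8, -1.70 to 0.48 for Havcr2, -1.66 to 0.14 for Trem2, -0.63 to 0.016 for Mgat2 and -0.60 to 0.11 for Cd44. Leaving out WT 2 turned the sign of the last 6, and leaving out Zeb2 cKO 2 that of Cd44 (0.044). Relative to summed macrophage markers, log2 differences turned to 0.28 for Lgals1, 0.45 for Lgals8 and 0.28 for Lgals9, and relative to fibroblast markers to 0.54, 0.71 and 0.54, ratios whose denominator was highest in WT 2. Without WT 2 these were 0.025, -0.033 and -0.13, and 0.082, 0.024 and -0.077. The order of levels held in 3 libraries with the longest transcript. Same-numbered libraries did not deviate together (correlations 0.088, -0.137 and -0.087), and a replicate block gave log2 fold changes of -1.42 for Lgals3 (edgeR unadjusted p = 0.0963) and 0.91 for Lgals4, with 247 unadjusted calls.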
